A study of Carya illinoinensis with 18 samples.

Results

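This is an account of the 200 genes whose transcript level varied least across a drought time course in pecan leaves, which makes them candidate reference genes for expression work in this tissue. Pecan seedlings of the cultivar 'Pawnee', grafted on seed-grown rootstocks, were kept in a growth chamber without water, and leaves were sampled every 3 d from 0 to 15 d. Each day had 3 RNA-Seq libraries, each from leaves of several plants, which gives 18 libraries. The day-0 plants, which the labels call untreated, were the control, and later libraries of watered plants are not among those analysed here. The table lists FPKM, a fragment count adjusted for transcript length and for the depth of the library, for 31074 genes. A gene was eligible when its FPKM was at least 10 in all 18 libraries and its mean at 0 d was under 1000, and 5687 genes were. The eligible genes were ordered by the standard deviation (SD) of log2(FPKM + 1) over the 18 libraries, and the first 200, or 3.52% of the eligible genes, were taken. The genes were thus chosen by the SD in these same 18 libraries, which is given here as a description, with no test. A later day differs from 0 d in time and plant age as well as in water, and these cannot be told apart.

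Quantitative PCR measures a transcript against one or more reference transcripts that are taken to be steady, and a drift of the reference is carried into every other gene. Genes for actin, tubulin, ubiquitin, glyceraldehyde-3-phosphate dehydrogenase and elongation factor 1-alpha are widely used in plants because they serve structure, protein turnover, glycolysis and translation in most cells. Leaves that dry out close their stomata, respond to abscisic acid, reduce photosynthesis and make protective proteins, so that the pool of RNA against which any transcript is counted can change as well. The study measured its calcium-sensor and kinase genes by PCR against an actin gene. The table names genes by CIL or MSTRG identifiers, none of which (0 of 31074) was found in the RefSeq gene table of the 'Pawnee' assembly, so no function, sequence or chromosome is given for any of the 200 genes. For the same reason the leaf origin was not checked against leaf marker genes, and it was not looked up whether the actin gene is one of the 200.

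Some properties of the libraries bear on all values below. Their FPKM summed to between 545598 and 587063, and the steps between low values gave a depth that was 1.37 times as high in the deepest as in the shallowest library. For 10 of the 18 libraries, the library with the highest correlation of log2(FPKM + 1) was of another day. The difference between this correlation and the best one within the day was over 0.03 for replicate 2 of 3 d (0.979 against 0.925), replicate 1 of 9 d (0.988 against 0.941) and replicate 2 of 12 d (0.976 against 0.944). When the rule was applied again without these 3 libraries, 153 of the 200 genes were chosen again. Leaf RNA is a mixture of cell types, so that a lower share of a cell type and less RNA per cell of that type cannot be told apart.

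CIL1411S0018 was the gene with the smallest spread, with an SD of 0.0742 on the log2 scale and a mean of 35.9 FPKM. FPKM of CIL1411S0018 was 33.12, 36.18 and 35.05 on day 0, 34.33, 35.29 and 31.74 on day 3, 36.05, 38.43 and 33.24 on day 6, 35.45, 38.05 and 38.02 on day 9, 37.11, 36.78 and 37.83 on day 12, and 36.21, 36.13 and 37.09 on day 15. Its highest library was 1.21 times its lowest, and the libraries of 15 d lay within those of the earlier days. CIL1018S0018 came next, with an SD of 0.0792 and a mean of 54.9 FPKM. FPKM of CIL1018S0018 was 52.89, 55.74 and 50.11 on day 0, 54.24, 55.46 and 62.41 on day 3, 56.29, 56.64 and 50.55 on day 6, 53.63, 59.76 and 55.20 on day 9, 57.38, 54.87 and 50.26 on day 12, and 54.58, 54.02 and 54.06 on day 15. The value of replicate 3 at 3 d was the one farthest from its mean, and the values at 15 d differed by less than 1 FPKM. CIL1343S0013 had the third smallest SD, 0.0808, and a mean of 25.6 FPKM. FPKM of CIL1343S0013 was 22.68, 25.56 and 27.02 on day 0, 26.02, 24.66 and 25.29 on day 3, 24.71, 25.40 and 27.81 on day 6, 24.06, 25.32 and 27.86 on day 9, 25.97, 24.04 and 28.38 on day 12, and 24.47, 25.10 and 26.69 on day 15. Only 6.35% of its sum of squares lay between the days, so almost all of its spread was between libraries of one day.

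CIL1176S0053 followed with an SD of 0.0850 and a mean of 30.9 FPKM. FPKM of CIL1176S0053 was 31.18, 29.50 and 32.10 on day 0, 32.03, 34.37 and 30.54 on day 3, 31.98, 31.28 and 30.78 on day 6, 26.66, 32.20 and 31.67 on day 9, 31.70, 32.76 and 31.02 on day 12, and 28.43, 28.55 and 29.03 on day 15. Its 3 libraries of 15 d were below all 3 of 0 d, with a mean difference of -0.10 on the log2 scale, and its lowest value was that of 9 d replicate 1. CIL1539S0029, with an SD of 0.0915 and a mean of 27.9 FPKM, showed the opposite order. FPKM of CIL1539S0029 was 25.56, 26.55 and 26.46 on day 0, 28.04, 31.97 and 25.78 on day 3, 29.68, 29.95 and 26.19 on day 6, 26.42, 28.19 and 28.10 on day 9, 25.83, 27.54 and 26.69 on day 12, and 29.18, 29.79 and 30.00 on day 15. All 3 libraries of 15 d were above those of 0 d, with a mean difference of 0.17 on the log2 scale. The geometric mean of these 5 genes ranged from 31.6 FPKM in 0 d replicate 1 to 35.1 FPKM in 3 d replicate 2, a ratio of 1.11 between the highest and the lowest library. When each library was left out in turn, CIL1411S0018 ranked 1 or 2, CIL1018S0018 ranked between 1 and 4, CIL1343S0013 between 2 and 5, CIL1176S0053 between 1 and 6 and CIL1539S0029 between 3 and 10. Neighbours among the first 5 thus changed places with 1 library, whereas none of them left the first 10.

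**Figure D1:**
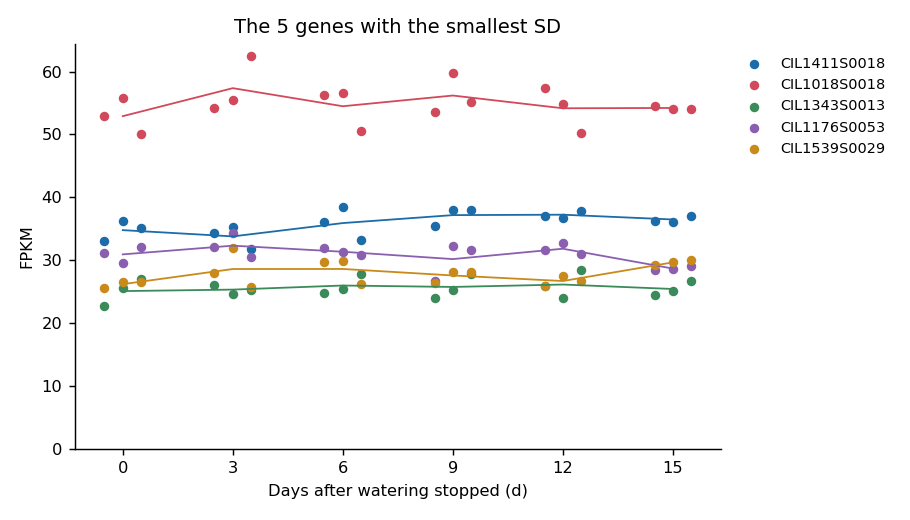
FPKM (y axis, from 0) of the 5 genes with the smallest SD against days after watering stopped (x axis). Points are the 3 libraries of a day, set side by side, and lines join the day means, with CIL1018S0018 (mean 54.9 FPKM) above the other genes (means of 25.6 to 35.9 FPKM) on every day.

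Across the 200 genes the SD ranged from 0.0742 to 0.153 with a median of 0.138, and 9 genes were under 0.1. The median of the 5487 other eligible genes was 0.363. The highest library of a stable gene was between 1.21 and 1.63 times its lowest (median 1.41), and 172 of the 200 genes stayed under a ratio of 1.5. In the other eligible genes the median ratio was 2.43. The limit did not fall at a gap. CIL1230S0017, the last gene inside, had an SD of 0.153445, and CIL1470S0021, the first gene outside, had one of 0.153474. The 200 included 75 genes within 0.01 of the limit, and 89 further genes lay within 0.01 above it. CIL1230S0017 was chosen again in 5 of the 18 lists that each left out 1 library, and its rank ranged from 107 to 264. Of all 200 genes, 141 were in each of these 18 lists and 17 were in fewer than 9.

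The level of the 200 genes had a median of 24.2 FPKM and quartiles of 18.2 and 39.7, below the other eligible genes with a median of 35.1 and quartiles of 23.6 and 59.9. Of the eligible genes with a mean of 10 to 20 FPKM, 7.63% (68 of 891) were among the 200. The share was 3.31% (99 of 2989) at 20 to 50 FPKM, 2.36% (28 of 1188) at 50 to 100 FPKM and 0.808% (5 of 619) from 100 FPKM upwards. The floor of 10 FPKM takes part in this, since a gene with a mean close to 10 can be eligible only when no library falls far below the mean. Of the 4362 genes of the table with a mean of 10 to 20 FPKM, 891 were eligible. CIL0972S0127 had the lowest mean, 11.9 FPKM, with 10.1 FPKM in its lowest library. CIL1189S0067 had the highest, 914 FPKM, and ranged from 802 FPKM in 9 d replicate 1 to 1072 FPKM in 9 d replicate 3. None of the 51 genes removed for a mean of 1000 or more at 0 d came near the limit, the lowest SD among them being 0.456.

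**Figure D2:**
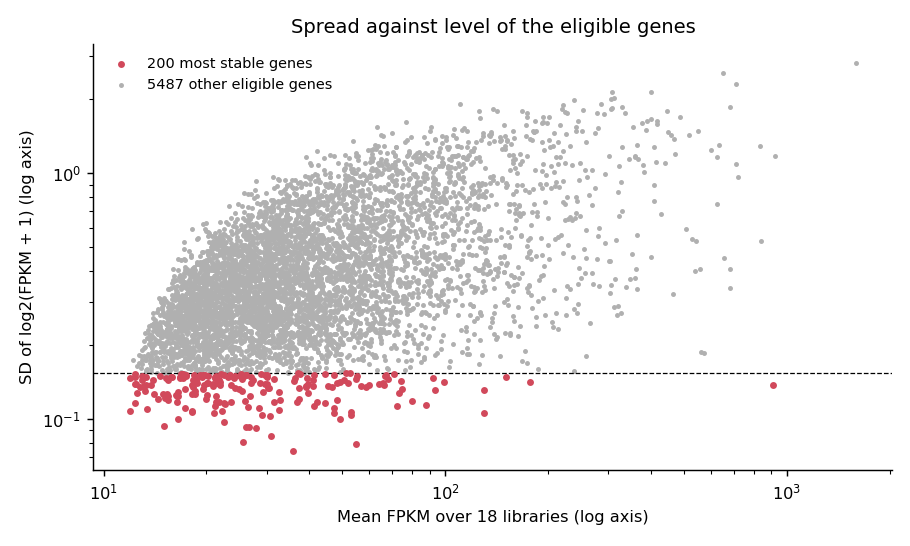
SD of log2(FPKM + 1) over 18 libraries (y axis, log) against mean FPKM (x axis, log) for the 5687 eligible genes, with the 200 most stable genes in red, the 5487 others in grey and the limit of 0.153 as a dashed line. The left edge of the grey points slopes upwards because a gene near 10 FPKM with a wide spread has a library under the floor.

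In the 200 genes the SD within days and the SD of the day means were of similar size. A mean of 3 libraries also carries part of the spread within its day, so the second SD is not an effect of the day alone. The SD within days, pooled over the 6 days, had a median of 0.111, against 0.230 in the other eligible genes. The SD of the 6 day means had a median of 0.101, against 0.314. Days accounted for 49.2% of the sum of squares at the median of the 200 genes and for 71.4% at the median of the others. This share likewise holds spread from within the days. For single days, the median SD among the 3 libraries was 0.0720 on day 0, 0.120 on day 3, 0.0876 on day 6, 0.104 on day 9, 0.106 on day 12 and 0.0666 on day 15. The first and the last day were thus the tightest, and in the other eligible genes these 2 days were the tightest as well (0.139 at 0 d and 0.123 at 15 d).

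The day means of the 200 genes were mostly highest in the middle of the drought. The highest day mean fell on day 6 in 39 genes, on day 9 in 56 and on day 12 in 38, together 66.5% of the 200 against 44.6% of the other eligible genes. The lowest day mean fell at 0 d in 51% of the 200 genes (102) and at 15 d in 28.5% (57), against 39.1% and 44.7% of the other eligible genes. The day mean went up at every step in 4 of the 200 genes, against 584 of the 5487 others, and went down at every step in 1, against 339. The rule removes genes with a strong trend, so these contrasts with the other eligible genes are partly set by the choice. Relative to 0 d, the median difference of the 200 genes on the log2 scale was 0.08 on day 3, 0.12 on day 6, 0.14 on day 9, 0.14 on day 12 and 0.05 on day 15. In the other eligible genes it was 0.12, 0.27, 0.30, 0.26 and 0.03 on the same days. The geometric mean of the 200 genes was lowest in 0 d replicate 1, with 25.6 FPKM, and highest in 9 d replicate 2, with 29.5 FPKM, a ratio of 1.15. The curve of the 200 genes over the days had the shape of that of the other eligible genes and was flatter up to 12 d. This shape was tied to the scaling. After median-ratio scaling (described further on) the median difference of the 200 genes from 0 d was -0.04 on day 3, -0.08 on day 6, 0.01 on day 9, 0.12 on day 12 and 0.40 on day 15. The FPKM of a library summed to 545598 to 559991 on days 6 to 12, to 559530 to 566468 on day 15 and to 565413 to 587063 on days 0 and 3. The part of these sums in the shape was not tested.

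**Figure D3:**
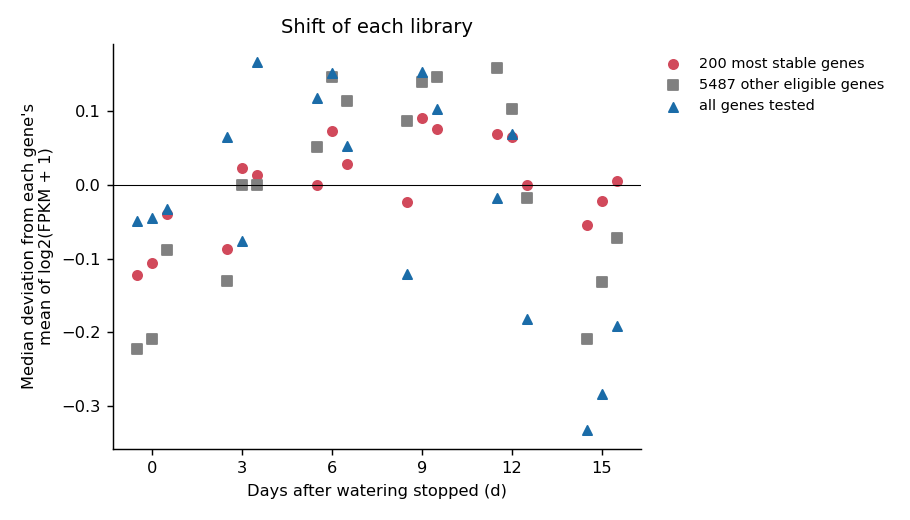
Median deviation of log2(FPKM + 1) from each gene's own mean (y axis) in each of the 18 libraries, by day (x axis), for the 200 most stable genes (circles), the 5487 other eligible genes (squares) and all 24443 genes tested (triangles). The circles lie between -0.12 and 0.09, whereas the triangles of 15 d lie between -0.33 and -0.19.

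The level at each later day was set against 0 d with limma on log2(FPKM + 1), fitted to the 24443 genes with a mean of at least 0.1 FPKM and called at a Benjamini-Hochberg adjusted p under 0.05. The counts among the 200 genes are a description, because the same libraries chose them. At 15 d, 22 of the 200 genes (11%) were called, beside 56.1% of all genes tested. Of these, 18 were higher at 15 d than at 0 d (22.1% of all genes tested were) and 4 were lower (34% were). The called genes differed by 0.25 to 0.41 when higher and by -0.34 to -0.28 when lower. At 12 d 16 were called, all higher than at 0 d, beside 31.1% of all genes tested in either direction and 17.8% as higher. At 9 d 9 were called, again all higher (23.2% and 15.6% of all genes), and at 6 d 1, which was higher (13.9% and 11%). These directions turned with the scaling, which is described further on. Median-ratio scaling gave 2 lower calls at 6 d (10.6% of all genes in either direction), 0 calls at 9 d (21.3%) and 2 higher calls at 12 d (32.8%). Quantile normalization gave 5 lower calls at 6 d (12.4%) and 0 at 9 d (21.6%) and 12 d (32%). Median-ratio scaling over the eligible genes alone gave 17 lower calls at 6 d (11.8%), 22 at 9 d (22.8%) and 16 at 12 d (34.3%). It gave 0 higher calls on these days. At 3 d limma called 0 of the 200 genes (0.0286% of all genes), and 13 had an unadjusted p under 0.05 (beside 11.3% of all genes tested). At least 1 later day was called in 35 genes (62.8% of all genes tested), and a joint F-test of the 6 days in limma called 7 genes (57.8% of all genes tested).

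The number called moved when single libraries were left out. The share of all genes tested often moved in the same direction, but in some cases at 9 d and 12 d it changed little. At 15 d, 6 of the 200 genes were called without 0 d replicate 1 (49% of all genes), 6 without 15 d replicate 2 (48%), 7 without 15 d replicate 1 (47.2%), 11 without 0 d replicate 2 (50%) and 13 without 15 d replicate 3 (53.1%). At 12 d, 1 was called without 0 d replicate 1 (18.3% of all genes), without 0 d replicate 2 (20.4%) or without 12 d replicate 1 (16.7%), 6 without 0 d replicate 3 (26.6%) and 7 without 12 d replicate 3 (19.1%). It was 9 or 10 without replicate 1 or 2 of 6 d, replicate 2 or 3 of 9 d or any replicate of 15 d (28.3% to 31.1%). At 9 d, 1 was called without 0 d replicate 1 (10.3% of all genes), 2 without 0 d replicate 2 (12.4%) or 9 d replicate 2 (23.4%) and 3 without 9 d replicate 3 (18.1%), whereas 14 were called without replicate 2 (28.3%) or 3 (25.9%) of 12 d. The 3 libraries of 15 d were all above the 3 of 0 d in 64 of the 200 genes (32%), as in 28.1% of the genes tested. They were all below in 25 genes (12.5%), against 43.4% of the genes tested. In the other 111 genes the libraries of the 2 days overlapped. At 15 d the mean was higher than at 0 d in 126 of the 200 genes and lower in 74, with a median difference of 0.05 against -0.24 over all genes tested. Of the other eligible genes, 51.8% had a higher mean at 15 d, and their median difference was 0.03.

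The largest differences between 15 d and 0 d within the list were as follows. CIL1096S0025 had 18.30, 20.11 and 20.05 FPKM at 15 d, against 13.79, 14.08 and 15.44 FPKM at 0 d, a difference of 0.41 on the log2 scale. CIL1246S0021 had 24.72, 23.41 and 22.44 FPKM at 15 d, against 18.18, 17.75 and 16.85 FPKM at 0 d, a difference of 0.40. In both genes every library of 15 d exceeded every library of 0 d. CIL1003S0013 had 63.93, 65.00 and 64.95 FPKM at 15 d, against 83.13, 86.55 and 76.50 FPKM at 0 d, a difference of -0.34. CIL1239S0046 had 33.28, 36.18 and 34.99 FPKM at 15 d, against 43.68, 42.06 and 46.86 FPKM at 0 d, a difference of -0.34 as well. Here every library of 15 d was below every library of 0 d.

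The list changed with how libraries were scaled to each other. FPKM is relative to all fragments of a library, and at 15 d a few genes took a larger part of them. The 10 most abundant genes of a library held 9.74% to 11.4% of its FPKM at 15 d, against 7.37% to 8.66% at 0 d. CIL1449S0008, the most abundant gene of 15 d, had 24218 to 31425 FPKM at 15 d, against 4.40 to 46.5 FPKM at 0 d. It is not one of the 200 and was chosen for mention after its values were seen. Median-ratio scaling sets libraries to the median gene among those above 0 in every library, and its factors were 0.707, 0.754 and 0.85 at 15 d, against 0.967, 0.971 and 1.02 at 0 d. After it the median difference of all genes tested between 15 d and 0 d was -0.03 in place of -0.24. The part of the abundant genes in this shift was not tested.

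After median-ratio scaling, all 200 genes had a higher mean at 15 d than at 0 d, by 0.01 to 0.75 on the log2 scale with a median of 0.40, a ratio of 1.32 in FPKM + 1. The other eligible genes had a median of 0.38. The scaling raised the difference of every one of the 200 genes by 0.33 to 0.36, and no difference had been under -0.34. With deposited FPKM the difference was already above 0 in 126 genes, and this common shift brought the other 74 above 0. limma then called 134 of them as higher at 15 d (29.4% of all genes tested were called as higher) and 0 as lower (28.5%, and 57.9% in either direction), and the joint F-test called 119 (54.7% of all genes). The SD of the 200 genes had a median of 0.217, against 0.372 for the other genes eligible on deposited FPKM, and each of the 200 remained below the median SD of the eligible genes, 0.362. This follows in part from the choice of the 200 by a small SD in these same libraries. When the rule was applied to the scaled values, only 4 of the 200 were chosen again. Of the 200, 190 stayed eligible, among 6163 genes, and 114 had a rank above 1000. The geometric mean of the 200 genes was highest in 15 d replicate 1, with 37.8, and lowest in 3 d replicate 3, with 23.9, a ratio of 1.58.

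**Figure D4:**
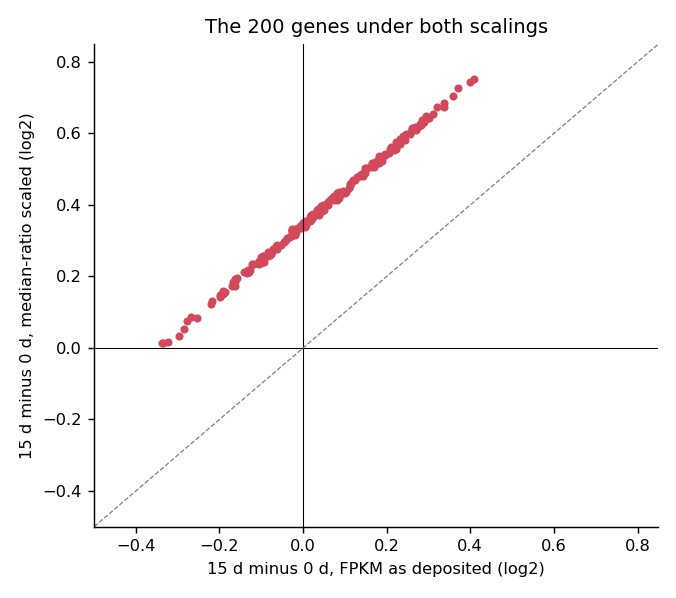
Difference of log2(FPKM + 1) between 15 d and 0 d for the 200 most stable genes, after median-ratio scaling (y axis) against FPKM as deposited (x axis), with the dashed line marking equal values. The points lie to both sides of 0 on the x axis, 126 above and 74 below it, and all 200 lie above 0 on the y axis, in a band 0.33 to 0.36 above the dashed line.

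Quantile normalization gives all libraries the same distribution. In the number kept, the median SD and the number called at 15 d it lay between deposited FPKM and median-ratio scaling. At 12 d limma called 0 of the 200 genes after it (32% of all genes), against 16 with deposited FPKM (31.1%) and 2 after median-ratio scaling (32.8%). Quantile normalization kept 78 of the 200 genes in the list, with a median SD of 0.146. At 15 d the mean was higher than at 0 d in 154 of the 200 genes, with a median difference of 0.15 against 0.13 in the other eligible genes. On that day limma called 48 as higher (28% of all genes tested were) and 4 as lower (27.5%, and 55.4% in either direction). The joint F-test called 32 (52.7%). Scaling by the median ratio over the 5687 eligible genes alone kept 68. After quantile normalization 190 of the 200 genes stayed eligible, among 6171, and the first 3 of the list had ranks of 23, 16 and 98. After median-ratio scaling over all genes their ranks were 1387, 843 and 1203 among 6163 eligible genes. CIL1189S0067, the most abundant gene of the list, moved to rank 3565 after quantile normalization, with an SD of 0.386.

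Only CIL0899S0104, CIL1189S0046, CIL0902S0097 and CIL1572S0007 were among the first 200 with deposited FPKM and also under both the median-ratio and the quantile method. The rule takes 200 of the 6163 genes eligible after median-ratio scaling. The overlap of 4 was not above that share, so it does not set these genes apart from the others. CIL0899S0104 had ranks of 117, 90 and 1 with deposited FPKM, median-ratio scaling and quantile normalization, and SDs of 0.140, 0.118 and 0.0652. FPKM of CIL0899S0104 was 18.38, 20.33 and 20.23 on day 0, 20.97, 22.23 and 23.75 on day 3, 22.42, 22.29 and 23.75 on day 6, 21.38, 25.54 and 23.56 on day 9, 21.53, 23.28 and 21.59 on day 12, and 17.24, 18.53 and 19.96 on day 15. Its highest day mean was at 9 d and its lowest at 15 d. CIL1189S0046 had ranks of 78, 120 and 10 and SDs of 0.132, 0.126 and 0.0833. FPKM of CIL1189S0046 was 17.78, 18.17 and 19.54 on day 0, 18.92, 19.63 and 19.42 on day 3, 21.30, 20.53 and 21.96 on day 6, 17.25, 22.85 and 21.83 on day 9, 19.25, 22.41 and 18.22 on day 12, and 17.29, 16.82 and 18.05 on day 15. Replicate 1 of 9 d was below the other libraries of its day, as it was for CIL0899S0104.

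CIL0902S0097 had ranks of 143, 51 and 26 and SDs of 0.147, 0.108 and 0.0926. FPKM of CIL0902S0097 was 36.83, 37.17 and 38.76 on day 0, 36.61, 43.94 and 42.27 on day 3, 42.69, 45.41 and 41.78 on day 6, 35.85, 44.45 and 45.07 on day 9, 39.07, 42.87 and 36.09 on day 12, and 32.02, 34.61 and 36.06 on day 15. Its libraries of 15 d were all below those of 0 d. CIL1572S0007 had ranks of 169, 128 and 53 and SDs of 0.149, 0.127 and 0.104. FPKM of CIL1572S0007 was 13.75, 15.13 and 14.81 on day 0, 13.78, 13.46 and 16.95 on day 3, 16.09, 18.13 and 17.20 on day 6, 13.72, 15.10 and 14.65 on day 9, 14.45, 14.83 and 12.32 on day 12, and 12.06, 13.57 and 13.11 on day 15. It was highest at 6 d, and it was chosen again in 11 of the 18 lists that left out 1 library. CIL1144S0049 came closest after these, with ranks of 69, 212 and 5 and a mean of 29.3 FPKM. In all 5 genes the mean was lower at 15 d than at 0 d with deposited FPKM, with differences of -0.16 to -0.06 on the log2 scale, and the common shift of median-ratio scaling brought these to 0.17 to 0.28.

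**Figure D5:**
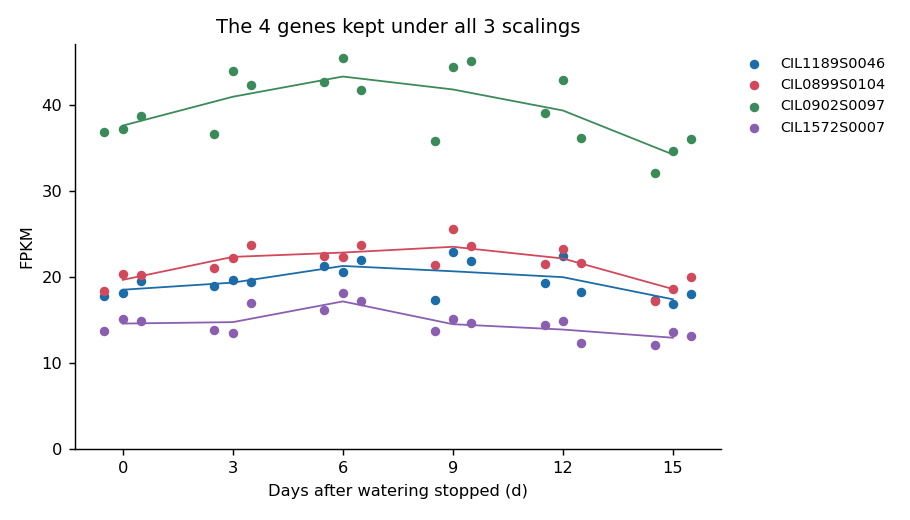
FPKM as deposited (y axis, from 0) of the 4 genes that were among the 200 under all 3 scalings, against days after watering stopped (x axis). Points are the 3 libraries of a day and lines join the day means, which were lowest at 15 d in each gene.

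Other measures of spread on deposited FPKM kept most of the list where they used the same libraries in a like manner. The coefficient of variation of FPKM kept 183 of the 200 genes, log2 of FPKM with no pseudocount kept 193, and the range of log2(FPKM + 1) kept 149. The SD of the day means kept 108, and the pooled SD within days kept 63. The M value of geNorm, the mean SD of the log2 ratio of a gene to every other eligible gene, kept 75. Without the 3 libraries of 15 d the rule kept 119 genes, and without those of 0 d 123, the lowest counts when a day was left out. Left out singly, no library brought the count under 166.

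A pair of identifiers of the list, CIL0771S0001 and CIL0923S0209, had the same FPKM in all 18 libraries, from 22.2 to 30.38. RSEM shares out a read among the genes it aligns to, but why these 2 rows are identical was not tested. Their values are taken as uncertain and not as independent measurements. The 200 identifiers thus hold 199 distinct profiles. Among the 5687 eligible genes, 8 had a partner with identical values, in 4 pairs. With deposited FPKM, a ratio of 2 stable genes was usually no steadier than the genes alone. Over the 19900 pairs, the SD of the log2 ratio had a median of 0.173 and was below the SD of both genes in 11.5% of pairs. The rule chose genes with a small SD in these same values, so this is partly set by the choice. A ratio does not change when a library is scaled by a factor. The SD of the single genes does, and its median was 0.217 after median-ratio scaling.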

How the data were processed

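Total RNA of leaves was enriched for mRNA and sequenced on an Illumina NovaSeq. The authors computed FPKM with RSEM, and the table they deposited holds the FPKM of every gene to 2 decimals. The submitters' processing notes also name fastp 0.18.0, Bowtie2 2.2.8, HISAT2 and StringTie 1.3.1, and the genome build is not given in the sources used here. Columns were matched to libraries by title, and 0 columns were left aside. FPKM keeps no read number, so the depth of a library was estimated only against the others.

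The rule was applied to FPKM as deposited. The members and lists were chosen with earlier results of these data known. limma 3.58.1 in R 4.3.3 was fitted to log2(FPKM + 1) of all 18 libraries with one mean per day, no block and a trended eBayes, over the 24443 genes whose FPKM averaged 0.1 or more, two-sided, with Benjamini-Hochberg adjustment. An exact test of 3 libraries against 3 cannot go below a p of 0.1, so calls rest on the spread that limma shares across genes and days. Median-ratio scaling, quantile normalization, other filters and pseudocounts, a replicate block and leaving out libraries were tried. The rule and the fit were tested on simulated data. Genes were named by rule: the 5 with the smallest SD, the 5 with the best worst rank over 3 scalings, the 2 largest differences of 15 d from 0 d in each direction, the genes at the limit, and the highest and lowest mean. CIL1449S0008 and the pair with identical values were named after their values were seen. Python 3.11.15 with numpy 2.4.6, pandas 2.3.3 and matplotlib 3.10.9 was used.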

Additional observations from a re-analysis of the deposited data

How the results depend on the processing

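Of the 200 genes, 4 were chosen again after median-ratio scaling, 78 after quantile normalization and, in an alternative chosen after seeing the data, 68 after median-ratio scaling over the eligible genes. A floor of 20 FPKM kept 102, the SD of the day means 108, the pooled SD within days 63, the geNorm M value 75, the libraries without 0 d 123 and those without 15 d 119. Leaving out 1 library kept 166 to 188. A floor of 5 FPKM kept 166 and no ceiling 200. The median SD moved to 0.217 after median-ratio scaling, 0.146 after quantile normalization, 0.143 with no pseudocount and 0.128 without the libraries of 0 d, and was 0.134 to 0.139 without 1 library. The median difference at 15 d moved to 0.40 after median-ratio scaling, 0.15 after quantile normalization and 0.0061 after scaling over the eligible genes, and was 0.03 to 0.08 without 1 library. The differences of CIL1003S0013 and CIL1239S0046 at 15 d, both called and below 0 on deposited FPKM, came to 0.015 and 0.014 after median-ratio scaling, whose shift was common to all 200 genes, and were -0.39 and -0.31 after quantile normalization.

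The number of the 200 genes called by limma at 6, 9, 12 and 15 d and over all days was 1, 9, 16, 22 and 7. The shares of all genes were 13.9%, 23.2%, 31.1%, 56.1% and 57.8%. The number was 2, 0, 2, 134 and 119 after median-ratio scaling (10.6%, 21.3%, 32.8%, 57.9% and 54.7% of all genes). It was 5, 0, 0, 52 and 32 after quantile normalization (12.4%, 21.6%, 32%, 55.4% and 52.7%). With scaling over the eligible genes 17 were called on day 6 (11.8% of all genes), 22 on day 9 (22.8%) and 16 on day 12 (34.3%), all of them lower than on day 0. On day 15 it was 18 (58.8%), 9 higher and 9 lower, and over all days 35 (56.4%). With no filter 7 were called on day 6 (12.3%), 16 on day 9 (20.1%) and 14 over all days (52.2%), and with a mean of at least 1 FPKM 4 on day 6 (16.5%). Without replicate 2 of 3 d, replicate 1 of 9 d and replicate 2 of 12 d, chosen after seeing the data, 1 was called on day 3 (5.29% of all genes), 13 on day 6 (27.4%), 17 on day 9 (23.2%), 33 on day 15 (61.6%) and 27 over all days (71%). Leaving out 1 library gave 0 on day 3 (0% to 3.73% of all genes), 0 to 7 on day 6 (5.86% to 18%) and 1 to 14 on day 9 (10.3% to 28.3%). It gave 1 to 16 on day 12 (16.7% to 40.3%), 6 to 25 on day 15 (47.2% to 58.5%) and 1 to 14 over all days (45.2% to 64.9%). Of the 45 pairs of libraries with the same replicate number, 15 had deviations that correlated above 0.1, and 7 of 18 libraries correlated best with their own number. The median correlation was -0.04 for pairs with the same number and 0.01 for pairs with different numbers. Whether libraries of the same number belong together was not tested further. With the replicate number as a block, 0, 1, 10, 12, 16 and 6 genes were called at 3, 6, 9, 12 and 15 d and over all days. The shares of all genes were then 0.0286%, 13%, 21.8%, 30%, 55.5% and 55.6%. Depth limits the precision of single values to an unknown degree, since read numbers are not used here.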

Other observations

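The identifiers of the 200 genes fell under 161 of the 1616 prefixes of CIL and 4 digits in the table. Of these prefixes, 131 held 1 of the genes and the fullest held 4. In 6 cases the genes stood in neighbouring rows of the table.

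The 200 genes together held between 1.18% and 1.455% of the FPKM of a library, and the other eligible genes between 47.5% and 60.6%. Over the 19900 pairs of the 200 genes, the correlation of log2(FPKM + 1) across the 18 libraries had a median of 0.22 and ranged from -0.84 to 1, where 1 is the pair with identical values. The libraries of a day share their treatment. With the day means taken out, the median was 0.17, and these libraries share any error of scaling. The library farthest from the mean of a gene was of 0 d or 3 d in 49.5% of the 200 genes, against 38.6% of the other eligible genes, and of 15 d in 10.5% against 40.5%. The rule removes genes with a large change on any day, so this contrast is partly set by the choice.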
